A study of Mus musculus with 15 samples.

Results

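The maturation of liver gene expression between the fetal stage E17.5 and 2 weeks of age was compared between Stab1-/- and wildtype mice. The comparison used all 15 of the 15 liver RNA libraries of the series. It asked, gene by gene, whether the log2 change with age in Stab1-/- livers differed from that in wildtype livers. Both genotypes had the mixed C57BL/6N;129SvJ background. The groups were 2-week-old Stab1-/- mice (n = 4), 2-week-old wildtype mice (n = 4), E17.5 Stab1-/- fetuses (n = 3) and E17.5 wildtype fetuses (n = 4). The Stab1-/- mice lacked Clever-1 in every cell, and no source used here says whether the wildtype mice were littermates. The stages came from different animals, so a change with age is a difference between groups and not one followed within animals. The p-values measure only the spread between these libraries.

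Stab1 encodes Clever-1, also called stabilin-1, a scavenger receptor of sinusoidal endothelial cells and some macrophages that takes up ligands such as SPARC and modified lipoproteins. The fetal liver is the main site of blood cell formation, and its hepatocytes make alpha-fetoprotein and growth factors such as IGF2. Around and after birth blood formation moves to the bone marrow, fetal hepatocyte genes are silenced, and enzymes of glucose production, amino acid breakdown, bile acid transport and drug metabolism are switched on. In bulk liver RNA, a smaller number of cells of a type and less RNA per cell cannot be told apart.

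The difference given below is the log2 change in Stab1-/- minus the log2 change in wildtype, from edgeR's quasi-likelihood test. Its SE was worked back from that test, as the absolute difference divided by the square root of the F statistic. A positive difference means that the gene rose more, or fell less, in Stab1-/- livers. Levels are RPKM, reads scaled by gene length and sequencing depth. Folds and tests come from the fit, which also used TMM, a scaling factor for each library. The factors were 0.866 to 0.972 at 2 weeks and 1.04 to 1.16 at E17.5. A fold with age can therefore differ from the ratio of the RPKM levels. A gene is called when its Benjamini-Hochberg adjusted p-value over all tested genes is under 0.05. The libraries held from 9660000 to 10960000 counted reads, rounded.

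Some E17.5 libraries stood apart. The summed level of 39 intestinal epithelium genes was 1022 RPKM in E17.5 Stab1-/- library 1 and between 258 and 318 RPKM in the other fetuses. Fabp2, a fatty acid binding protein of intestine, was at 55.6 RPKM in that library against 2.93 and 3.48 RPKM in the other Stab1-/- fetuses. At 2 weeks the mean of Fabp2 was higher still, 110 RPKM for the knockout group and 102 RPKM for the wildtype group. Fabp2 by itself is therefore not a specific sign of intestinal RNA in these data. The summed level of 28 pancreatic acinar genes was 5311 RPKM in E17.5 wildtype library 2 and between 256 and 728 RPKM in the other fetuses, and the digestive enzyme gene Ctrb1 was at 1720 RPKM there. The muscle list was highest in E17.5 Stab1-/- library 1 (181 RPKM) and E17.5 wildtype library 1 (170 RPKM), with between 29.9 and 40.7 RPKM in the other fetuses. Transcripts of sex-linked genes also differed with stage. All 8 libraries of 2-week-old mice had Xist, transcribed from the inactive X chromosome, at 44.8 to 111 RPKM and no read of the Y-linked gene Ddx3y. At E17.5, Stab1-/- library 3 had 118 RPKM of Xist and 0.142 RPKM of Ddx3y, wildtype library 4 had 0.621 and 28.2 RPKM, and each of the other 5 libraries had both. Stage and the sex of the tissue sampled can therefore not be told apart in these data. Means in Stab1-/- and wildtype fetuses were 8.82 and 17.2 RPKM for Ddx3y and 57.7 and 54 RPKM for Xist. The sex mix may thus differ between the fetal groups as well. Albumin, the defining product of hepatocytes, was at 37468 RPKM or more in every library.

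Stab1 itself, the targeted gene, fell with age in both genotypes and fell further in Stab1-/- livers. It was 4.29, 3.6 and 5.23 RPKM in the Stab1-/- fetuses and 0.862, 0.911, 1.54 and 1.05 RPKM in the 2-week-old Stab1-/- mice. In wildtype livers it was 15.5, 14.9, 16.5 and 21.8 RPKM at E17.5 and 9.15, 7.3, 9.68 and 11 RPKM at 2 weeks. No Stab1-/- library reached a wildtype library of its stage, and within each genotype the stages did not overlap. The gene fell 3.41-fold in Stab1-/- and 1.45-fold in wildtype livers (difference -1.24, SE 0.26, adjusted p = 0.031). This call was lost in 7 of the 15 fits that left out 1 library, those without libraries 1 or 2 of the 2-week-old Stab1-/- mice, 3 or 4 of the 2-week-old wildtype mice, 1 of the Stab1-/- fetuses, or 1 or 2 of the wildtype fetuses. Over the 15 fits the difference lay between -1.44 and -1.08, with an adjusted p from 0.0188 to 0.0772.

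Maturation was broad in both genotypes. Of 13885 genes tested, 4780 rose (34.4%) and 5204 fell (37.5%) with age in wildtype livers, and 4912 rose (35.4%) and 5126 fell (36.9%) in Stab1-/- livers. The change differed between genotypes in 251 genes (1.81% of those tested), of which 111 had a positive difference (0.799%) and 140 a negative one (1.01%). The median difference was 0.01 over all tested genes, 1.11 over the positive calls and -0.95 over the negative ones. Of all tested genes, 50.6% had a difference above 0. That share and the shares of calls, 0.799% positive and 1.01% negative, are the background for the gene lists below.

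**Figure D1:**
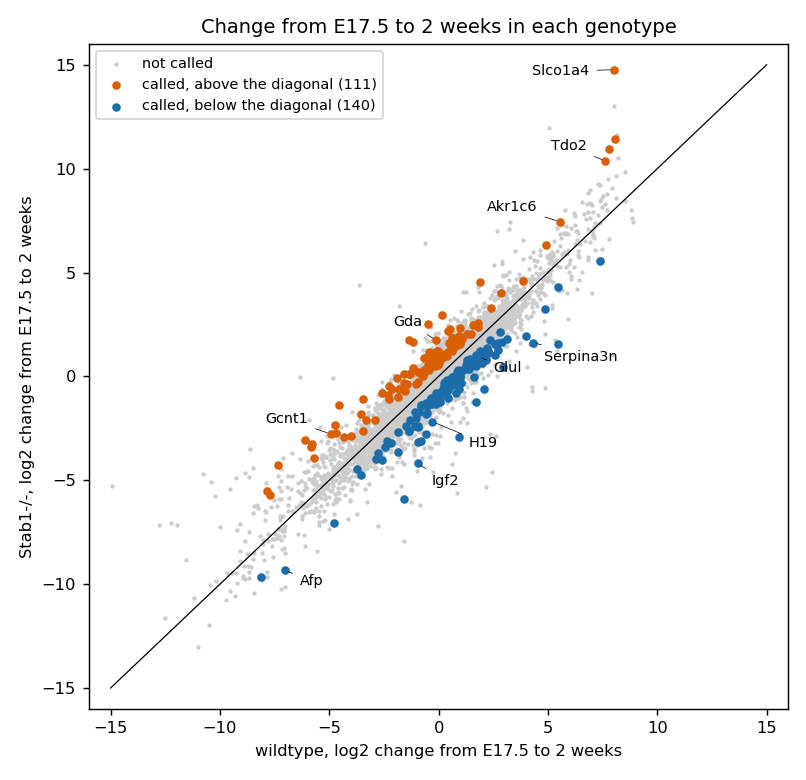
Log2 change with age in wildtype (x axis) and Stab1-/- livers (y axis), each point 1 of 13885 tested genes, with the 111 genes called above the diagonal in orange and the 140 called below it in blue. Most genes lie along the diagonal, Igf2 and Serpina3n lie below it, and the fitted position of Slco1a4 has no bound because the gene had no read in the Stab1-/- fetuses.

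Of the 111 genes with a positive difference, 47 went up in both genotypes by their fitted values, 31 went down in both, and 33 went up in Stab1-/- and down in wildtype livers. Of the 140 genes with a negative difference, 49 went up in both, 49 went down in both, and 42 went down in Stab1-/- and up in wildtype livers. The opposite changes passed the test in both genotypes for 5 and 18 of these genes. The gap between the genotypes was wider at 2 weeks than at E17.5 in 82 of the 111 and in 114 of the 140 genes, and it had opposite signs at the stages in 107 and 134 of them. The genes were chosen by the difference between these gaps, and that choice favours opposite signs. Shares over all tested genes were not computed.

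The number of calls rested on single libraries. With 1 library left out it ranged from 30 to 684, and 22 of the 251 genes were called in all 15 such fits, 4 with a positive and 18 with a negative difference. They included Igf2, H19, Afp, Serpina3n, Glul, Irs2, Cyp2b9, Col5a1, Gda, Pnp and Gcnt1. Without E17.5 Stab1-/- library 1, 31 genes were called, of which 30 were among the 251. Without E17.5 wildtype library 2, 30 were called, all among the 251. With both left out 14 were called, and 13 of them were among the 251. Scaling by library totals in place of TMM moved the median difference to 0.12 and the calls to 209 positive and 83 negative. No called gene changed sign under any setting tried.

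**Figure D2:**
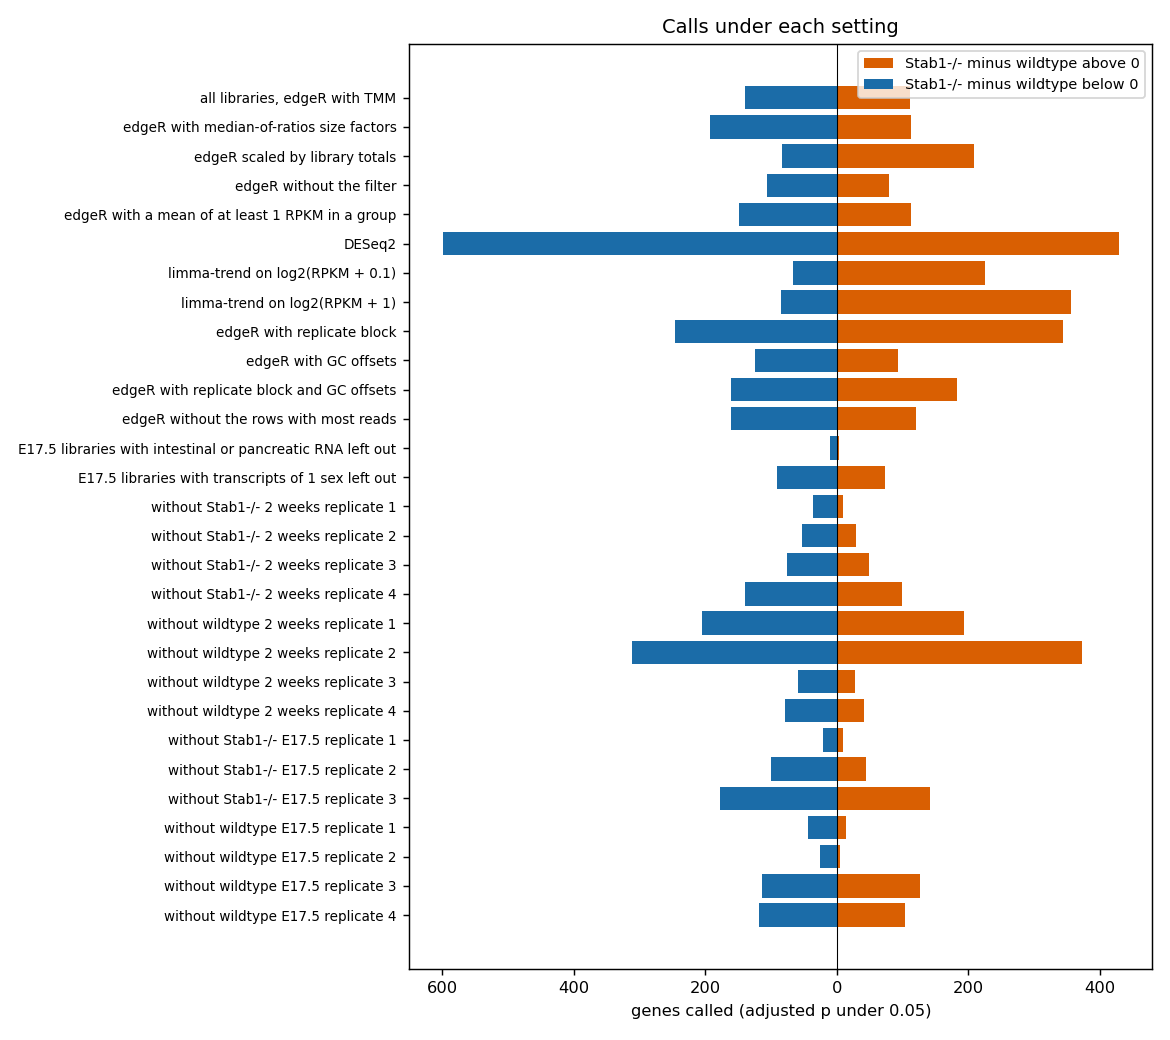
Number of genes called with a difference above 0 (orange, to the right) and below 0 (blue, to the left) with all libraries, under other normalizations, filters and tests, and with libraries left out. The totals ran from 14 genes without the E17.5 libraries high in intestinal or pancreatic RNA to 1028 genes with DESeq2.

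Igf2, H19 and Afp fell further in Stab1-/- livers. Igf2, the fetal insulin-like growth factor expressed from the paternal allele, was 1181, 1209 and 1129 RPKM in Stab1-/- fetuses and 1068, 1030, 1148 and 1203 RPKM in wildtype fetuses. At 2 weeks it was 46.2, 61.6, 69.1 and 42.7 RPKM in Stab1-/- mice and 501, 514, 463 and 323 RPKM in wildtype mice. The genotypes overlapped at E17.5 and were far apart at 2 weeks. Igf2 fell 18.2-fold in Stab1-/- and 1.94-fold in wildtype livers, with the smallest p-value of all genes (difference -3.23, SE 0.22, adjusted p = 1.27e-06). It lies on chromosome 7 at 142650766 to 142666816, near H19 at 142575529 to 142578143 (GRCm38).

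H19, the maternally expressed noncoding RNA next to Igf2, followed a like pattern. Its level was 5236, 5290 and 5449 RPKM in Stab1-/- fetuses and 5563, 5736, 5482 and 5133 RPKM in wildtype fetuses. It was 1014, 1012, 1059 and 935 RPKM in 2-week-old Stab1-/- mice and 4650, 3943, 3247 and 2418 RPKM in wildtype mice. The fetal groups overlapped, and every wildtype library at 2 weeks was above every Stab1-/- library. H19 fell 4.52-fold in Stab1-/- livers, and its change in wildtype livers did not pass the test (adjusted p = 0.0884), a difference of -1.90 (SE 0.21, adjusted p = 0.000343).

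Afp, alpha-fetoprotein, the major plasma protein of the fetus, was 19545, 19009 and 23183 RPKM in Stab1-/- fetuses and 18339, 18346, 17620 and 19523 RPKM in wildtype fetuses. At 2 weeks it was 29, 28.5, 31.7 and 19.5 RPKM in Stab1-/- mice and 134, 141, 137 and 35.8 RPKM in wildtype mice. Fetal groups overlapped and those at 2 weeks were separate, and at that age wildtype library 4 was far below the other 3 wildtype libraries. Afp fell 648-fold in Stab1-/- and 130-fold in wildtype livers (difference -2.32, SE 0.41, adjusted p = 0.0187). Its adjusted p lay between 1.54e-06 and 0.0481 when any 1 library was left out.

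The sequence upstream of Afp is shown because its silencing after birth is a defining step of liver maturation, beside those of Serpina3n and Gda, which lead the enzyme and inhibitor genes described next. Each is the 250 bases before the RefSeq start on GRCm38.p6, 5′ to 3′ on the gene's strand. Afp is at chr5:90490464-90490713 (+), Serpina3n at chr12:104406458-104406707 (+) and Gda at chr19:21472662-21472911 (-). The GENCODE annotation differs from RefSeq here. By GENCODE the Gda gene spans 21391307 to 21473445, so that its window lies inside that span. Capitals mark matches, on either strand, to a TATA box (TATAAA), a motif of the hepatocyte factor HNF1 or an interferon gamma activated sequence (TTCNNNGAA).
Afp: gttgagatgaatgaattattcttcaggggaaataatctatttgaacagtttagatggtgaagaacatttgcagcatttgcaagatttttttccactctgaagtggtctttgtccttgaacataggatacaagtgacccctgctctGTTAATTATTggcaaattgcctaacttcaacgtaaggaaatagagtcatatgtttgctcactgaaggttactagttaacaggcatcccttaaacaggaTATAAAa
Serpina3n: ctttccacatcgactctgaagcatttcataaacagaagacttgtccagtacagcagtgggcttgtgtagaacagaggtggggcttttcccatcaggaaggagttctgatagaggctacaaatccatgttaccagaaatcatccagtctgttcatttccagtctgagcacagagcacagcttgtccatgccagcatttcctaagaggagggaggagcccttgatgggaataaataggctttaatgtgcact
Gda: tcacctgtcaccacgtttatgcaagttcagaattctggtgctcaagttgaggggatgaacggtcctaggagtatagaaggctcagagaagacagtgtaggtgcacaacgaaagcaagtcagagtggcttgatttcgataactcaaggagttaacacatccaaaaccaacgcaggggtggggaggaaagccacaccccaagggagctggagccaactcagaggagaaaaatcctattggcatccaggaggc
The Afp window held 1 TATA box and 1 HNF1 match, and these letters were not in the other windows. Among 32851 listed mouse promoters, 12.4% held the TATA box, 0.371% the HNF1 motif and 7.02% the interferon gamma activated sequence. The 129 promoters listed for 101 genes with a negative difference held them in 17, 3 and 3 cases, and the 97 listed for 81 genes with a positive difference in 14, 0 and 4. A match is a run of letters and not a measured binding site.

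Of 26 imprinted genes, 23 had a difference below 0 (median -0.48 against 0.01 over all genes). Of the 26, 5 had a called negative difference, against 1.01% of all genes, and none a positive one. Besides Igf2 and H19 these were Cdkn1c, an inhibitor of cell cycle kinases, Dlk1, a Notch-related protein of fetal progenitor cells, and Grb10, an adaptor that dampens insulin receptor signalling. Cdkn1c fell 15.6-fold in Stab1-/- and 7.34-fold in wildtype livers (difference -1.08, SE 0.20, adjusted p = 0.0214), reaching 12 ± 1.24 RPKM (SD, n = 4) and 21.6 ± 2.43 RPKM (SD, n = 4). Dlk1 went from 172 ± 10.5 RPKM (SD, n = 3) to 0.176 ± 0.0818 RPKM (SD, n = 4) in Stab1-/- livers and from 153 ± 23.6 RPKM (SD, n = 4) to 0.425 ± 0.0835 RPKM (SD, n = 4) in wildtype livers (difference -1.55, SE 0.31, adjusted p = 0.0291). Grb10 had a difference of -0.68 (adjusted p = 0.0322). The calls of Cdkn1c, Dlk1 and Grb10 held in 13, 9 and 8 of the 15 fits with 1 library left out. The summed level of the list was between 7742 and 8067 RPKM in the fetuses, between 1310 and 1501 RPKM in 2-week-old Stab1-/- mice and between 3120 and 5511 RPKM in wildtype mice. Most of this sum was H19 and Igf2. At 2 weeks the list means were 1401 RPKM in Stab1-/- and 4396 RPKM in wildtype mice. H19 had means of 1005 and 3565 RPKM there, and Igf2 of 54.9 and 450 RPKM.

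Among 24 fetal liver genes 3 had a called negative difference and none a positive one (median -0.21), against 1.01% and 0.799% of all genes. Besides Afp these were Bex4, a small X-linked gene, and Gpc3, a cell surface proteoglycan of fetal liver. Bex4 fell 16.2-fold in Stab1-/- and 6.03-fold in wildtype livers (adjusted p = 0.021). Gpc3 fell 13.1-fold and 6.76-fold (adjusted p = 0.0307). These calls held in 14 and 10 of the 15 fits. Over all genes 1.81% were called in either direction. Among 30 genes of the growth hormone and IGF axis Irs2, an adaptor of the insulin and IGF1 receptors, was the only call. It fell 5.19-fold in Stab1-/- and 1.94-fold in wildtype livers (difference -1.42, SE 0.25, adjusted p = 0.018), from 11.3 ± 0.183 RPKM (SD, n = 3) and 7.78 ± 0.863 RPKM (SD, n = 4) in the fetuses.

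**Figure D3:**
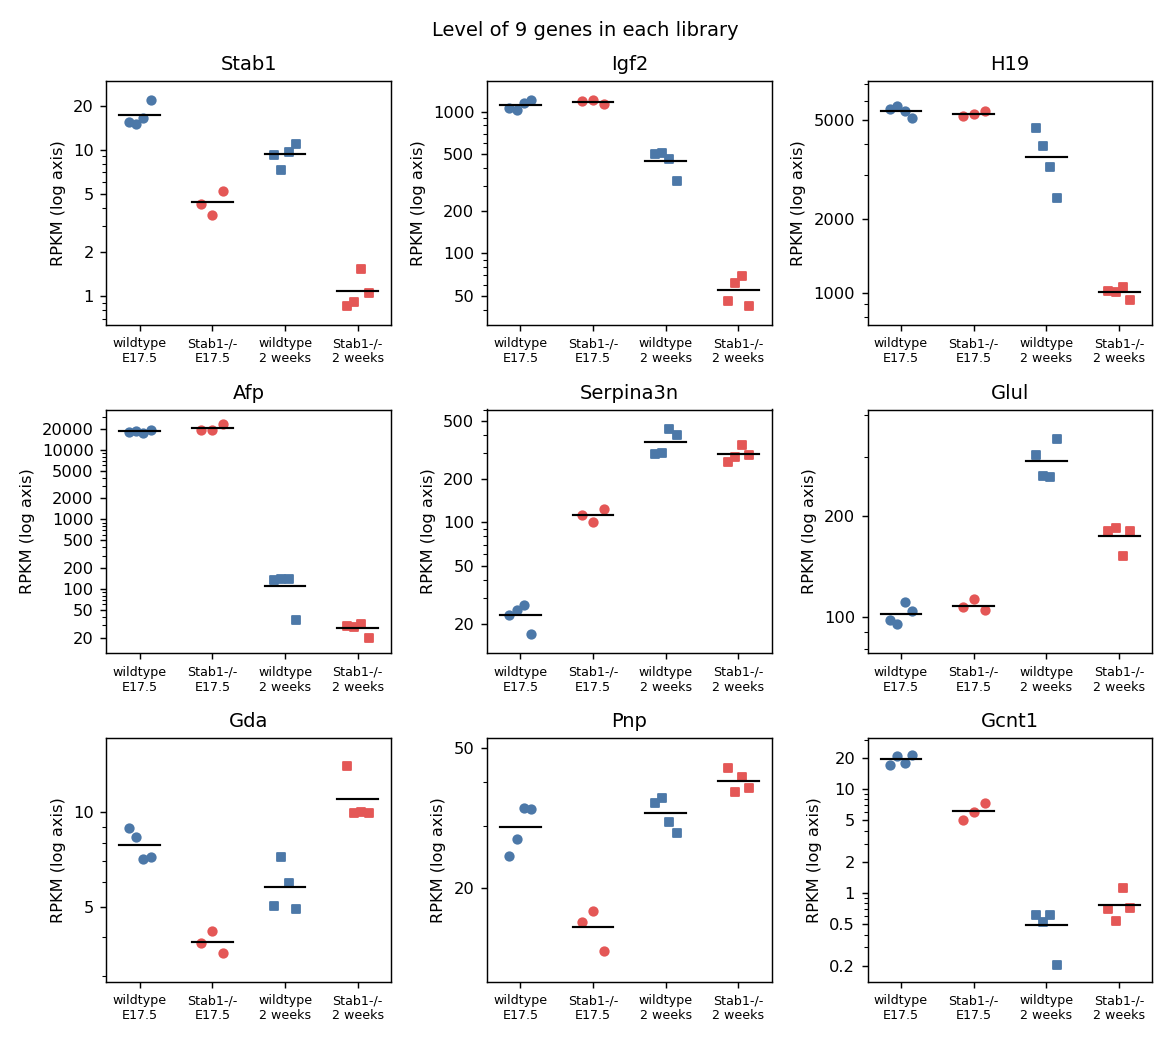
Level of 9 genes in each library as RPKM on a log axis, in the 4 groups named on the x axis, with a black bar at each group mean. Igf2, H19 and Afp overlapped between genotypes at E17.5 and were lower in every Stab1-/- than wildtype library at 2 weeks, while Serpina3n was higher in every Stab1-/- than wildtype fetus.

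Serpina3n, a secreted inhibitor of serine proteases and an acute-phase protein, rose less in Stab1-/- livers. It was 112, 100 and 123 RPKM in Stab1-/- fetuses and 23, 24.8, 26.7 and 16.9 RPKM in wildtype fetuses. The 2-week level was 263, 282, 341 and 293 RPKM in Stab1-/- mice and 296, 299, 444 and 398 RPKM in wildtype mice. The genotypes were separate at E17.5 and overlapped at 2 weeks. It rose 3.1-fold in Stab1-/- and 20.1-fold in wildtype livers (difference -2.69, SE 0.24, adjusted p = 2.77e-05). Serpina3n belongs to a cluster of close copies, so its counts are uncertain, and none of the other tested serpin A genes was called (median of the 20 -0.09).

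Calls among other plasma proteins went in either direction. Among 29 acute-phase genes 2 had a positive and 1 a negative called difference (median -0.15), and among 50 secreted plasma proteins 1 and 1 (median -0.30). Over all genes the shares were 0.799% positive and 1.01% negative. Differences were below 0 for 21 of the 29 and 39 of the 50. Orm1, an orosomucoid with close copies and so uncertain counts, was 1.86, 2.24 and 2.7 RPKM in Stab1-/- fetuses and 13.9, 5.91, 6.47 and 17.6 RPKM in 2-week-old Stab1-/- mice. In wildtype livers it was 3.63, 2.37, 2.26 and 1.95 RPKM at E17.5 and 2.11, 2.23, 1.1 and 0.366 RPKM at 2 weeks. Fetal groups overlapped, and every Stab1-/- library was above the wildtype ones at 2 weeks (difference 2.98, SE 0.65, adjusted p = 0.0347). Apcs, serum amyloid P, rose 4.79-fold in Stab1-/- livers and did not pass the test in wildtype livers (difference 1.72, SE 0.40, adjusted p = 0.0452). Mbl2, a lectin that activates complement, rose 81-fold in Stab1-/- and 30.2-fold in wildtype livers (difference 1.43, SE 0.29, adjusted p = 0.0307). C3, the central complement component, rose 2.37-fold in wildtype livers, and its change in Stab1-/- livers did not pass the test (difference -0.90, SE 0.22, adjusted p = 0.0482). Stat3, the transcription factor of the acute-phase response, rose 1.52-fold in wildtype livers (difference -0.73, adjusted p = 0.0453). The calls of Orm1, Apcs, Mbl2, C3 and Stat3 held in 8, 5, 9, 5 and 5 of the 15 fits with 1 library left out. None of the 7 alpha-2-macroglobulin genes was called, and 5 of the 6 with reads in every group had a difference above 0 (median 1.35). Pzp and A2m, its most abundant members, had differences of -0.77 and 1.17 (adjusted p = 0.0845 and 0.128).

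Gda and Pnp, enzymes of purine breakdown, rose further in Stab1-/- livers. Gda, guanine deaminase, was 3.82, 4.18 and 3.55 RPKM in Stab1-/- fetuses and 14, 9.93, 10 and 9.95 RPKM in 2-week-old Stab1-/- mice. In wildtype livers it was 8.92, 8.32, 7.07 and 7.21 RPKM at E17.5 and 5.03, 7.2, 5.96 and 4.91 RPKM at 2 weeks. It was lower in every Stab1-/- than wildtype fetus and higher in every Stab1-/- than wildtype mouse at 2 weeks. Gda rose 3.33-fold in Stab1-/- livers, and its change in wildtype livers did not pass the test (adjusted p = 0.519), a difference of 1.84 (SE 0.21, adjusted p = 0.000343).

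Pnp, purine nucleoside phosphorylase, was 16, 17.2 and 13.2 RPKM in Stab1-/- fetuses and 43.8, 37.5, 41.3 and 38.6 RPKM in 2-week-old Stab1-/- mice. In wildtype livers it was 24.7, 27.5, 33.7 and 33.5 RPKM at E17.5 and 35, 36, 30.9 and 28.7 RPKM at 2 weeks. Like Gda, it was lower in every Stab1-/- fetus and higher in every Stab1-/- mouse at 2 weeks. Pnp rose 3.05-fold in Stab1-/- and 1.39-fold in wildtype livers (difference 1.13, SE 0.16, adjusted p = 0.00572). Pnp2, its neighbouring copy, rose 3.35-fold in Stab1-/- and fell 2.57-fold in wildtype livers (difference 3.11, SE 0.60, adjusted p = 0.0263). At 2 weeks Pnp2 had 72, 54, 58 and 60 reads in Stab1-/- mice and 29, 8, 2 and 27 reads in wildtype mice. The wildtype libraries of that age were thus far apart, and the wildtype fold rests on few reads. Pnp lies on chromosome 14 at 50931082 to 50965237 and Pnp2 at 50955992 to 50964749, so that their spans overlap and the split of reads between them is uncertain. Stab1 lies on the same chromosome at 31139013 to 31168641 (GRCm38). Of the called genes described below, Atp8a2 (from 59638540) and Vwa8 (from 78849052) lie there as well. A link between position and these differences was not tested.

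Of 39 genes of the urea cycle and amino acid breakdown 4 had a negative and 1 a positive called difference. Over all genes the shares were 1.01% and 0.799%. Differences below 0 numbered 28 (median -0.23). Glul, glutamine synthetase, which marks the hepatocytes around the central vein, was 107, 113 and 105 RPKM in Stab1-/- fetuses and 97.8, 95.5, 111 and 104 RPKM in wildtype fetuses. In 2-week-old animals it was 180, 184, 152 and 181 RPKM in Stab1-/- mice and 303, 263, 261 and 339 RPKM in wildtype mice. The fetal groups overlapped and the groups at 2 weeks did not. Glul rose 1.89-fold in Stab1-/- and 3.64-fold in wildtype livers (difference -0.95, SE 0.16, adjusted p = 0.018).

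Hal, histidine ammonia lyase, rose 3.42-fold in Stab1-/- and 8.89-fold in wildtype livers (adjusted p = 0.0291). Amt, of the glycine cleavage system, rose 2.37-fold and 3.71-fold (adjusted p = 0.0453). Oat, ornithine aminotransferase, had a difference of -2.69 (SE 0.56, adjusted p = 0.0307). It was 143 RPKM in Stab1-/- fetal library 1, the library high in intestinal genes, and 24.4 and 27.6 RPKM in the other Stab1-/- fetuses. Without that library the Oat difference was -1.45 (adjusted p = 0.0184). Tdo2, tryptophan dioxygenase, had the positive difference. It had 5, 12 and 5 reads in Stab1-/- fetuses and 48, 55, 17 and 20 reads in wildtype fetuses. It reached 489 ± 82.3 RPKM (SD, n = 4) and 309 ± 72.9 RPKM (SD, n = 4) at 2 weeks (difference 2.75, SE 0.56, adjusted p = 0.0291). The calls of Hal, Amt, Oat and Tdo2 held in 9, 3, 10 and 11 of the 15 fits with 1 library left out.

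Slco1a4, a transporter of bile acids and organic anions, had no read in any Stab1-/- fetus and 17, 13, 3 and 4 reads in wildtype fetuses. Its level at 2 weeks was 84.4, 73.5, 90.6 and 73.8 RPKM in Stab1-/- mice and 47.4, 52.1, 35.3 and 50 RPKM in wildtype mice. The genotypes did not overlap at either stage. It was the only call among 29 bile acid genes (adjusted p = 0.0214, list median -0.16), where 1.81% of all genes were called. No size is given because the Stab1-/- fetuses were at 0.

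Sult2a2, a sulfotransferase of steroids and bile acids, had 1, 0 and 1 reads in Stab1-/- fetuses and 10, 6, 5 and 4 reads in wildtype fetuses. It reached 174 ± 27.8 RPKM (SD, n = 4) and 141 ± 14.1 RPKM (SD, n = 4) at 2 weeks (adjusted p = 0.0291). Its groups overlapped at 2 weeks and not at E17.5. Inmt, an indole methyltransferase, had 3, 3 and 8 reads in Stab1-/- fetuses and 39, 23, 12 and 25 reads in wildtype fetuses, and reached 1056 ± 222 RPKM (SD, n = 4) and 489 ± 233 RPKM (SD, n = 4) (adjusted p = 0.0482). Akr1c6, a hydroxysteroid dehydrogenase, rose 174-fold in Stab1-/- and 46.2-fold in wildtype livers (difference 1.92, SE 0.37, adjusted p = 0.0255). These calls held in 13, 11, 4 and 11 of the 15 fits for Slco1a4, Sult2a2, Inmt and Akr1c6. Close copies make the counts of Sult2a2 and Akr1c6 uncertain.

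Of 48 conjugating enzymes 2 had a positive and 3 a negative called difference (median 0.30), against 0.799% and 1.01% of all genes. Gstm3 and Gstm2, glutathione transferases with close copies, rose 1.74-fold and 3.16-fold in Stab1-/- livers and 4.51-fold and 7.41-fold in wildtype livers (adjusted p = 0.0265 and 0.031). Ugt1a9, a glucuronosyltransferase, was at 2.93 RPKM in Stab1-/- fetal library 1 and 0.832 and 1.23 RPKM in the other Stab1-/- fetuses (difference -2.02, adjusted p = 0.0446). The calls of Gstm3, Gstm2 and Ugt1a9 held in 12, 8 and 7 of the 15 fits. Among 55 cytochrome P450 genes (list median -0.08) 1 was called, near the 1.81% called in either direction over all genes. This was Cyp2b9, which has close copies and rose 19.7-fold in Stab1-/- and 43.3-fold in wildtype livers (difference -1.14, SE 0.19, adjusted p = 0.015). It was higher in every Stab1-/- than wildtype fetus (10.1 ± 1.01 RPKM (SD, n = 3) and 5.37 ± 0.643 RPKM (SD, n = 4)) and overlapped at 2 weeks.

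Most calls among lipid and glucose genes were negative. Of 43 genes of fatty acid oxidation and ketogenesis 4 had a called negative difference, against 1.01% of all tested genes. Differences below 0 numbered 38 (median -0.36). Slc25a20, the carnitine carrier of mitochondria, rose 3.31-fold in Stab1-/- and 5.05-fold in wildtype livers (adjusted p = 0.0453). Acot2, a mitochondrial acyl-CoA thioesterase, fell 1.73-fold in Stab1-/- and rose 1.75-fold in wildtype livers (adjusted p = 0.0307). Acot1, its cytosolic copy, and Ucp2, a mitochondrial carrier protein, had differences of -1.29 and -0.77 (adjusted p = 0.0437 and 0.0482), and reads may be split between the thioesterase copies. Fads1, a fatty acid desaturase, was the only call among 29 genes of fatty acid synthesis (difference -0.61, adjusted p = 0.0453). Hmgcs1, an early enzyme of cholesterol synthesis, was the only call among 25 genes of that pathway (difference -0.78, adjusted p = 0.0437).

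Among 32 genes of glucose and glycogen metabolism 1 was called in each direction (median -0.31), against 0.799% positive and 1.01% negative over all genes. Ppp1r3b, which targets a phosphatase to glycogen, rose 2.7-fold in Stab1-/- and 1.48-fold in wildtype livers (difference 0.87, SE 0.21, adjusted p = 0.0453). G6pc, glucose 6-phosphatase, the last step of glucose release, rose 46.8-fold and 165-fold (difference -1.82, SE 0.45, adjusted p = 0.0488). The calls of Slc25a20, Acot2, Acot1, Ucp2, Fads1, Hmgcs1, Ppp1r3b and G6pc held in 5, 10, 5, 2, 4, 6, 4 and 3 of the 15 fits that left out 1 library.

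Of 46 genes of stellate cells and the extracellular matrix 8 had a called negative and none a called positive difference. Over all genes the shares were 1.01% and 0.799%. Of the 46 differences 42 were below 0 (median -0.79), where 50.6% of all tested genes had a difference above 0. Col5a1, a fibrillar collagen chain, was 18.3, 11.6 and 12.6 RPKM in Stab1-/- fetuses and 4.27, 4.55, 6.32 and 5.38 RPKM in 2-week-old Stab1-/- mice. In wildtype livers it was 11.2, 9.83, 13 and 12.5 RPKM at E17.5 and 9.26, 8.6, 9.2 and 11 RPKM at 2 weeks. The fetal groups overlapped, and every Stab1-/- library at 2 weeks was below every wildtype library. Col5a1 fell 2.33-fold in Stab1-/- livers and did not pass the test in wildtype livers (difference -1.28, SE 0.21, adjusted p = 0.0163).

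The basement membrane genes Lamc1, a laminin chain, and Col4a1, a type IV collagen chain, fell 2.53-fold and 1.84-fold in Stab1-/- livers and did not pass the test in wildtype livers (differences -1.21 and -1.13, adjusted p = 0.0187 and 0.0307). Col14a1, which binds collagen fibrils, rose 1.96-fold in wildtype livers and did not pass the test in Stab1-/- livers (difference -1.02, SE 0.19, adjusted p = 0.0207). The calls of Lamc1, Col4a1 and Col14a1 held in 14, 10 and 14 of the 15 fits. E17.5 Stab1-/- library 1, high in intestinal and muscle genes, had the highest fetal level of all 4 genes, for example 28.5 RPKM of Lamc1 against 19 and 21.2 RPKM in its group. The summed level of the matrix list was 1447 RPKM in that library and between 861 and 1082 RPKM in the other fetuses. At 2 weeks it was between 904 and 1077 RPKM in Stab1-/- mice and between 1235 and 1416 RPKM in wildtype mice. Without that library the list median was -0.43 with 1 call, and without E17.5 wildtype library 2 as well it was -0.33 with 0 calls.

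Npnt, nephronectin, a matrix protein outside the list, fell 5.23-fold in Stab1-/- and 2.11-fold in wildtype livers (difference -1.31, SE 0.21, adjusted p = 0.0113). Of 34 endothelial genes 2 were called, both negative, against 1.01% of all genes with a negative call. These were Stab1, the targeted gene itself, and Kdr, the VEGF receptor of endothelial cells. Differences below 0 numbered 28 (median -0.32). Kdr went from 9.56 ± 1.11 RPKM (SD, n = 4) to 13.8 ± 1.23 RPKM (SD, n = 4) in wildtype livers, a rise of 1.84-fold in the fit. In Stab1-/- livers it was 11.1 ± 0.574 RPKM (SD, n = 3) and 10.9 ± 0.711 RPKM (SD, n = 4), which did not pass the test (difference -0.68, SE 0.13, adjusted p = 0.027, called in 11 of the 15 fits).

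The granulocyte genes that were called fell less in Stab1-/- livers. Of 32 genes 6 had a called positive and none a called negative difference, against 0.799% and 1.01% of all genes. Differences above 0 numbered 29 (median 0.96), where 50.6% of all tested genes had a difference above 0. S100a8, a calcium-binding protein of neutrophils, was 1187, 1259 and 1371 RPKM in Stab1-/- fetuses and 3041, 2919, 1740 and 1887 RPKM in wildtype fetuses. In the older animals it was 184, 81.5, 123 and 71.8 RPKM in Stab1-/- mice and 53.6, 55.3, 16.8 and 10.8 RPKM in wildtype mice. It was lower in every Stab1-/- than wildtype fetus and higher in every Stab1-/- than wildtype mouse at 2 weeks. S100a8 fell 9.53-fold in Stab1-/- and 55.9-fold in wildtype livers (difference 2.55, SE 0.56, adjusted p = 0.0347).

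Prg2, the major basic protein of eosinophils, fell 7.62-fold in Stab1-/- and 20.3-fold in wildtype livers (adjusted p = 0.027). BC100530, a stefin with close copies whose counts are uncertain, fell 46.3-fold and 231-fold (adjusted p = 0.0358). Fcnb, a ficolin of myeloid cells, went from 39 ± 3.63 RPKM (SD, n = 3) and 56 ± 6.99 RPKM (SD, n = 4) in the fetuses to 7, 10, 5 and 5 reads in Stab1-/- and 1, 2, 3 and 3 reads in wildtype mice (adjusted p = 0.0345). Camp, an antimicrobial peptide, and S100a9, the partner of S100a8, had differences of 1.80 and 2.46. The calls of S100a8, Prg2, BC100530 and Fcnb held in 7, 11, 6 and 8 of the 15 fits with 1 library left out. The summed level of the list was between 5248 and 5767 RPKM in Stab1-/- fetuses and between 7321 and 11762 RPKM in wildtype fetuses. At 2 weeks it was between 233 and 492 RPKM in Stab1-/- and between 65.3 and 198 RPKM in wildtype mice. No member was called without E17.5 Stab1-/- library 1 or without E17.5 wildtype library 2, where the median was 0.88 and 0.98.

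Gcnt1, an enzyme that branches O-linked glycans, was 5.1, 5.98 and 7.33 RPKM in Stab1-/- fetuses and 16.9, 20.7, 18 and 21.4 RPKM in wildtype fetuses. It was 0.704, 0.534, 1.12 and 0.713 RPKM in 2-week-old Stab1-/- mice and 0.622, 0.525, 0.613 and 0.204 RPKM in wildtype mice. The genotypes were apart at E17.5 and overlapped at 2 weeks. Gcnt1 fell 6.84-fold in Stab1-/- and 30.7-fold in wildtype livers (difference 2.17, SE 0.34, adjusted p = 0.0113). Anxa1, annexin A1, an anti-inflammatory protein of myeloid cells, fell 7.2-fold and 16.2-fold (difference 1.17, SE 0.22, adjusted p = 0.0245). Slfn1, a schlafen gene with close copies, had a difference of 2.36 (SE 0.45, adjusted p = 0.0241) and 4, 3, 5 and 2 reads in 2-week-old wildtype mice. Gpr141, an orphan receptor, was 1.71 ± 0.318 RPKM (SD, n = 3) in Stab1-/- and 3.32 ± 0.5 RPKM (SD, n = 4) in wildtype fetuses. At 2 weeks it had 7, 9, 4 and 4 reads in Stab1-/- and 1, 2, 1 and 1 reads in wildtype mice, the latter under the floor of 3 reads per library, so that no fold is given (adjusted p = 0.0168).

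Among 34 genes of Kupffer cells and monocytes 2 had a positive and 2 a negative called difference (median -0.04). Over all genes the shares were 0.799% and 1.01%. Cx3cr1 and Ccr2, chemokine receptors of monocytes, fell 4.27-fold and 1.87-fold in Stab1-/- and 9.97-fold and 4.97-fold in wildtype livers (adjusted p = 0.0453 and 0.0493). Hmox1, the heme-degrading enzyme, fell 3.25-fold and 2.1-fold (adjusted p = 0.0468). The calls of Cx3cr1, Ccr2 and Hmox1 held in 2, 5 and 3 of the 15 fits. No gene of the 47 erythroid (median -0.11) or the 21 B lymphocyte genes (median -0.09) was called.

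**Figure D4:**
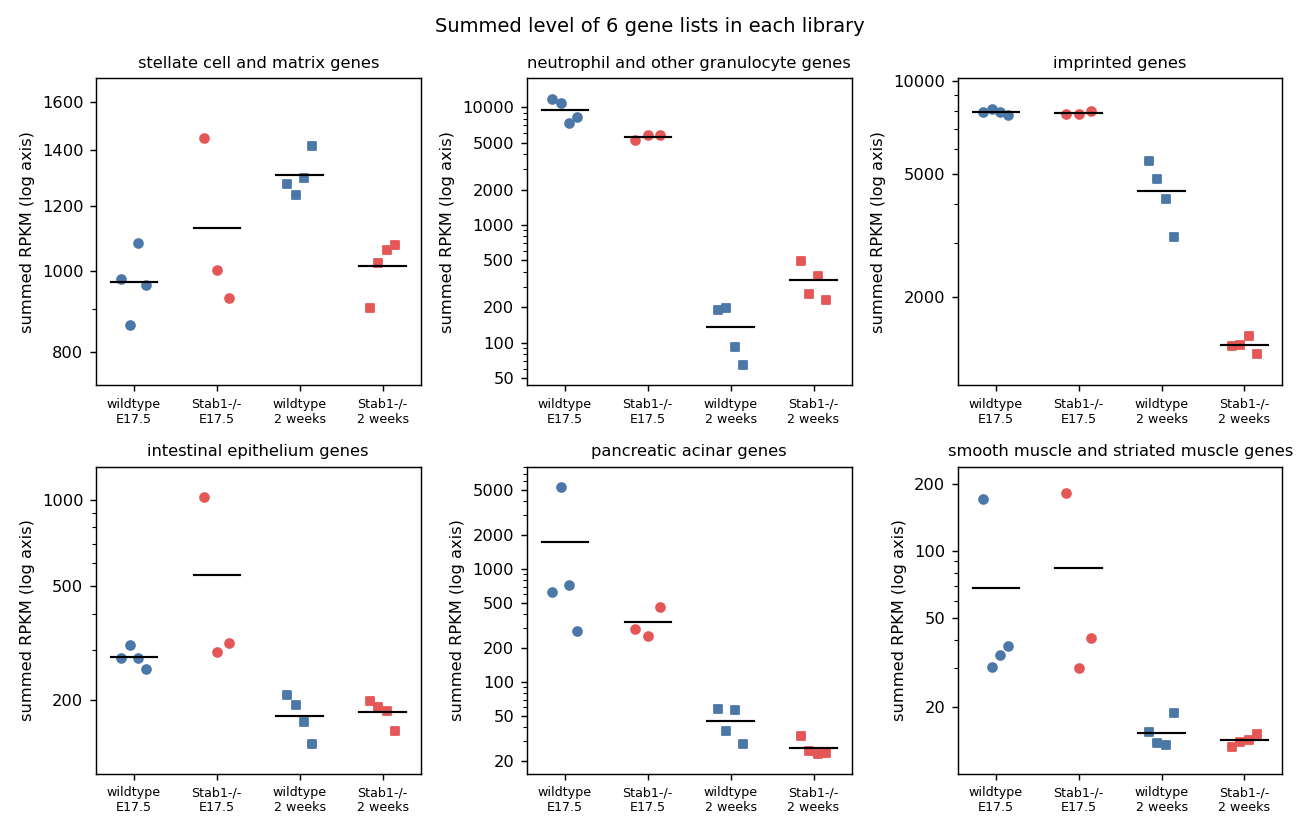
Summed RPKM of 6 gene lists in each library on a log axis, in the 4 groups named on the x axis, with a black bar at each group mean. The granulocyte sum was lower in every Stab1-/- than wildtype fetus and higher in every Stab1-/- than wildtype mouse at 2 weeks, and 1 or 2 fetal libraries stood apart in the intestinal, pancreatic and muscle sums.

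The remaining genes with the smallest p-values were of mixed function. Vwa8, a mitochondrial ATPase, rose 2.36-fold in Stab1-/- and 4.78-fold in wildtype livers (difference -1.02, SE 0.12, adjusted p = 0.000481). Maob, monoamine oxidase B, rose 1.71-fold and 2.98-fold (difference -0.80, SE 0.13, adjusted p = 0.0113). Tenm4, a teneurin, was 4.25 ± 0.329 RPKM (SD, n = 3) and 4.15 ± 0.336 RPKM (SD, n = 4) in Stab1-/- and wildtype fetuses and fell to 3, 4, 3 and 1 reads in Stab1-/- and 12, 15, 12 and 13 reads in wildtype mice (adjusted p = 0.00141). Atp8a2, a phospholipid flippase, fell 12.3-fold and 3.65-fold (adjusted p = 0.00572). Arid5b, a DNA-binding protein, fell 2.24-fold in Stab1-/- livers and did not pass the test in wildtype livers (difference -1.02, SE 0.16, adjusted p = 0.0107). All 5, and Npnt, were called in each of the 15 fits that left out 1 library. On the positive side Svip, a regulator of protein degradation at the endoplasmic reticulum, fell 1.52-fold and 3.5-fold (adjusted p = 0.0214). Dusp12, a phosphatase, rose 3.2-fold and 1.58-fold and Kat2b, a histone acetyltransferase, rose 2.32-fold and 1.54-fold (adjusted p = 0.0245 and 0.0255).

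Lists of cell state gave at most 2 calls each, where 1.81% of all tested genes were called in either direction. Among 50 interferon-stimulated genes Ifi27 was called and rose 3.59-fold in Stab1-/- and 1.53-fold in wildtype livers (difference 1.23, SE 0.30, adjusted p = 0.0482, called in 4 of the 15 fits), and 42 differences were above 0 (median 0.36). None of the 9 tested Ifi200 family genes was called. Ifi202b had no read in any wildtype library of either stage, so no difference of changes is given for it, and 7 of the other 8 differences were above 0 (median 1.05). Of 20 clock genes Bhlhe40, a transcriptional repressor, was called, rising 1.98-fold in wildtype livers and not passing the test in Stab1-/- livers (difference -1.01, SE 0.18, adjusted p = 0.0187). Of 31 glucocorticoid, fasting and stress genes Arrdc3, an arrestin-like protein, rose 4.97-fold and 2-fold (adjusted p = 0.0318). Gadd45g, a stress gene of the same list, fell 1.52-fold in Stab1-/- and rose 1.93-fold in wildtype livers (adjusted p = 0.0373). Of 29 chaperones Sel1l, of the endoplasmic reticulum degradation complex, was called (difference -0.66, adjusted p = 0.0452). The calls of Bhlhe40, Arrdc3, Gadd45g and Sel1l held in 14, 9, 5 and 2 of the 15 fits.

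No cytosolic ribosomal protein gene was called, while 70 of the 78 differences were above 0 (median 0.27, or 0.39 with 2 calls when scaled by library totals). Of 44 cell cycle genes none was called and 40 differences were below 0 (median -0.43). None of the 39 hepatocyte transcription factors (29 below 0, median -0.23), the 77 respiratory chain subunits (30 below 0, median 0.12) or the 15 cholangiocyte genes (12 below 0, median -0.34) was called. In the same edgeR test 32 ribosomal protein, 18 cell cycle, 7 hepatocyte transcription factor, 20 respiratory chain and 5 cholangiocyte genes had an unadjusted p under 0.05, and DESeq2 called 11, 6, 4, 3 and 1 genes of these lists. The same numbers were 6 and 1 for the erythroid list, 2 and 0 for the B lymphocyte list, 3 and 2 for the alpha-2-macroglobulin family and 7 and 2 for the Ifi200 family.

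The lists of other organs moved with the fetal libraries named above. The median difference of the 20 tested intestinal genes was -2.77, and -0.53 without E17.5 Stab1-/- library 1. The only call was Gucy2c, the intestinal guanylin receptor, at 10.9 RPKM in that library and 0.798 and 1.72 RPKM in the other Stab1-/- fetuses (difference -3.87, SE 0.87, adjusted p = 0.0373). Without that library it was -2.13 and no longer called (adjusted p = 0.0567), and the call held in 6 of the 15 fits. Of 17 tested pancreatic genes none was called. No read was found in a whole group for 9 of them, so that their sizes were not measured, and the differences of the other 8 were above 0. None of the 10 tested muscle genes was called (median -1.10 over the 9 with reads in every group), nor any of 5 tested sex-linked genes, of which 4 had no read in a whole group. In 8 other lists, leaving out members with no read in a whole group moved the median by at most 0.05. An unadjusted p under 0.05 was found for 3 pancreatic, 4 muscle and 0 sex-linked genes in edgeR, and DESeq2 called 1, 2 and 0.

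**Figure D5:**
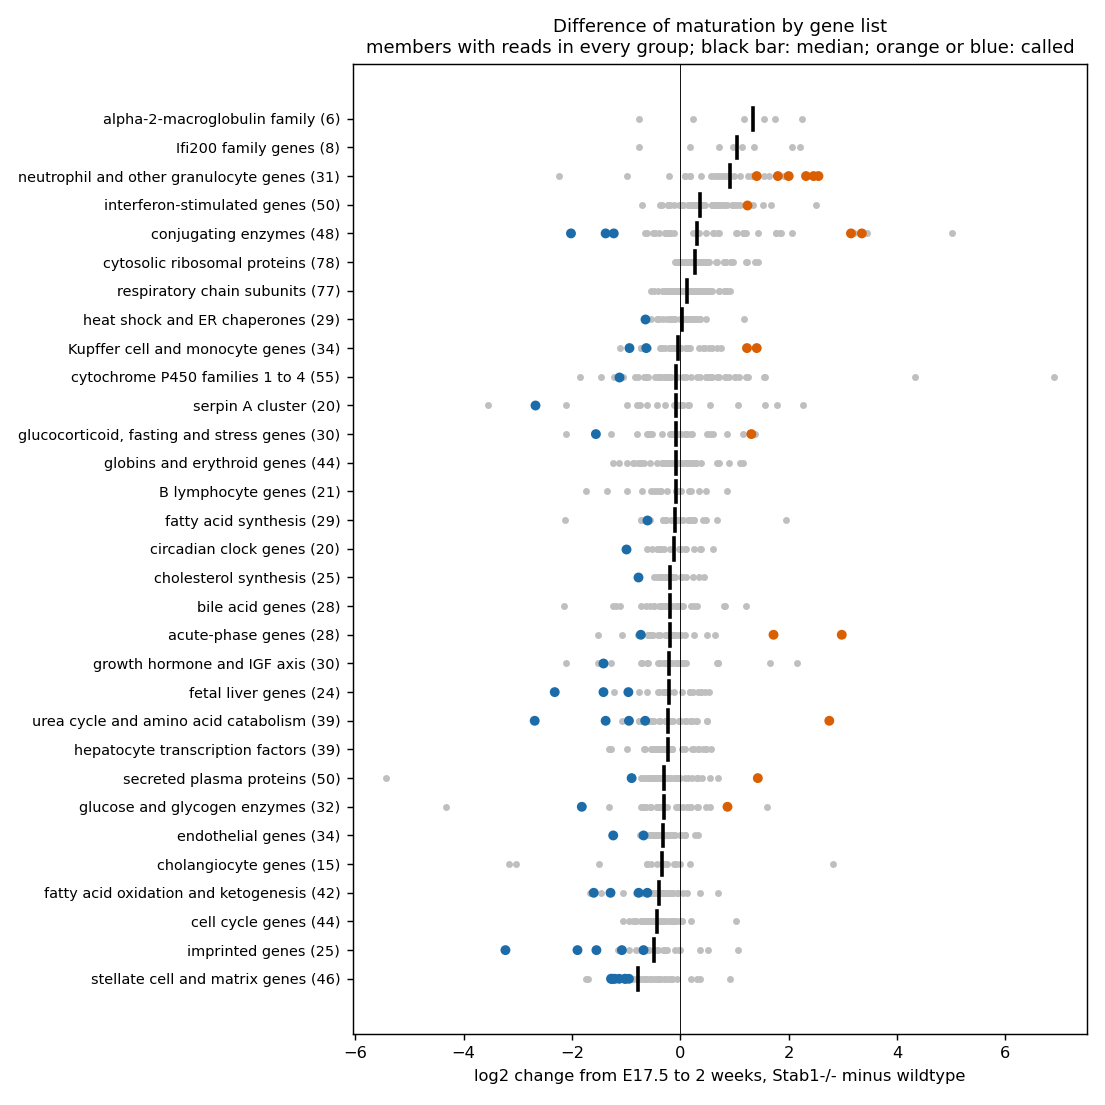
Difference of maturation (log2 change in Stab1-/- minus wildtype, x axis) for the tested members of each gene list other than those of other organs and sex, with the number in parentheses and members with no read in a whole group left out. Each point is a gene, orange or blue where called, and the black bar is the list median, from -0.79 for matrix genes, or -0.43 without E17.5 Stab1-/- library 1, to 1.35 for the alpha-2-macroglobulin family.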

How the data were processed

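Liver RNA was sequenced in 15 libraries, grouped by the sample labels. The authors deposited whole-number counts of uniquely mapped reads in 19464 rows (19348 gene IDs) and RPKM values made from these counts. Aligner, build and strandedness are not given in the sources used here, so antisense and overlapping genes cannot be separated.

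All groups entered 1 fit in edgeR 4.0.16 (R 4.3.3; TMM, filterByExpr at 10 reads and 15 in total, quasi-likelihood, two-sided), tested on simulated data. Alternatives used DESeq2 1.42.0, limma 3.58.1, other scalings and filters, GC offsets, a replicate block and fewer libraries. No replicates were repeats of each other (chi-square per degree of freedom at least 5.68). Positions and GC content are from GENCODE on GRCm38, promoters from RefSeq.

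The comparison and its 35 gene lists were chosen with earlier results of these data known. Named genes are Stab1, the 12 smallest p-values in each direction among called genes with a group mean of at least 1 RPKM, up to 4 such genes per list and direction, up to 2 abundant members of lists without calls, and the 3 highest markers of each other organ. Grb10, Camp, S100a9, Ifi202b, Xist, Ddx3y, Alb, the Zfp genes and the other genes called in all 15 fits were named after their values were seen. A gene that the rule names is not reported here.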

Additional observations from a re-analysis of the deposited data

Results flagged for a closer look

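The 111 positive and 140 negative calls and the Stab1 difference of -1.24 are differences of the change with age between genotypes by the test itself. In 312 groups of 4 libraries, 18 had a library far from the other 3, and chance gives about 5% of such groups. In 2-week-old Stab1-/- mice, library 1 was at 14 RPKM for Gda (others 9.93 to 10) and 96.9 RPKM for Arrdc3 (others 45.7 to 51.1). Its summed levels were 4868 RPKM for glucose and glycogen enzymes (others 5073 to 5105), 736 RPKM for endothelial genes (others 767 to 772) and 33.2 RPKM for pancreatic genes (others 23.4 to 24.6). Library 3 was at 152 RPKM for Glul (others 180 to 184) and library 4 at 1.05 RPKM for Irs2 (others 2.07 to 2.25).

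In 2-week-old wildtype mice, library 2 was at 0.0587 RPKM for Gpr141 (others 0.0273 to 0.0278) and 22.6 RPKM for Dusp12 (others 15.6 to 16.5). Library 3 was at 119 RPKM for Sult2a2 (others 146 to 149) and 8.77 RPKM for Gstm3 (others 14.5 to 15). Library 4 was at 35.8 RPKM for Afp (others 134 to 141) and 37.4 RPKM for Col4a1 (others 26 to 27.6). Among wildtype fetuses, library 1 had a muscle sum of 170 RPKM (others 30.4 to 37.7), library 2 a pancreatic sum of 5311 RPKM (others 286 to 728) and library 3 a chaperone sum of 4069 RPKM (others 3840 to 3860). Library 4 was at 4.84 RPKM for Gadd45g (others 7.97 to 8.44) and had a cholesterol synthesis sum of 1466 RPKM (others 1612 to 1641).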

How the results depend on the processing

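The counts of positive and negative calls (111 and 140) were 209 and 83 with library totals, 429 and 599 with DESeq2, and 225 and 66 or 356 and 84 with limma at pseudocounts of 0.1 and 1. The limma fits used RPKM, so their values were scaled by library totals as well. Median differences were 0.12 with library totals and 0.12 and 0.10 with limma. The cause was not tested. In fits chosen after seeing the data, the counts of calls were 4 and 10 without the E17.5 libraries high in intestinal or pancreatic genes, and 74 and 91 without those with transcripts of 1 sex. They were 113 and 192 with median-of-ratios factors, 79 and 106 without the filter, 113 and 149 with a minimum of 1 RPKM, 93 and 124 with GC offsets, and 120 and 160 without the 21 genes with most reads. The replicate numbers do not pair the libraries (correlations of deviations from -0.18 to 0.17), and with the replicate block the counts were 345 and 246, or 183 and 160 with GC offsets as well. With 1 library left out they ranged from 5 to 373 and from 21 to 311. The total was 45, 83 and 124 without libraries 1, 2 and 3 of the 2-week-old Stab1-/- mice, 399, 684, 87 and 120 without wildtype libraries 1 to 4 of that age, 31 and 144 without Stab1-/- fetal libraries 1 and 2, and 58 and 30 without wildtype fetal libraries 1 and 2.

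The Stab1 difference lost its call with limma (-1.05 and -0.54) and without both E17.5 libraries high in other organs' genes (-1.22), and ranged from -1.44 to -1.08 with 1 library left out. It was -1.35 with the replicate block. The 69 other called genes named by the rule gave 1928 values under these settings, of which 1428 kept the call, 500 lost it and none changed sign. With GC offsets 12 of them lost the call: C3, Stat3, Inmt, Amt, G6pc, Fads1, Acot1, Slc25a20, Ucp2, Arrdc3, Ccr2, Hmox1. Groups of 3 or 4 libraries limit all tests, and depth limits genes near 3 reads.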

Other observations

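Genes with a symbol beginning with Zfp, most of them zinc finger proteins, were looked at after the results were seen. Of 329 tested, 11 had a called positive and 2 a called negative difference, against 0.799% and 1.01% of all genes, and 230 differences were above 0 (median 0.23). Zfp932 went from 4.1 ± 0.595 RPKM (SD, n = 3) to 6.55 ± 1.74 RPKM (SD, n = 4) in Stab1-/- livers and from 7.74 ± 1.37 RPKM (SD, n = 4) to 3.81 ± 1.43 RPKM (SD, n = 4) in wildtype livers (difference 1.58, adjusted p = 0.0307). Zfp617, Zfp942 and Zfp946 had differences of 1.25, 1.31 and 1.11. With each library's trend with transcript GC content removed, Zfp932, Zfp617, Zfp942 and Zfp946 had 1.10, 0.93, 0.76 and 0.48, and Zfp946 was no longer called (adjusted p = 0.17). Close copies make the counts of these genes uncertain. The negative calls were Zfp36 and Zfp36l1, which bind RNA and promote its decay. Without E17.5 Stab1-/- library 1 or without E17.5 wildtype library 2 no Zfp gene was called (medians 0.22 and 0.18).

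Transcript GC content moved with these results. Across 13787 tested genes, which share the same libraries, the Spearman correlation of the difference with GC content was -0.29. The median GC content was 43.8% in the genes with a positive call, 52.7% in those with a negative call, 50.3% in all tested genes and 45.5% in the Zfp genes. With each library's trend with GC content removed, 5 Zfp genes had a positive and 1 a negative call (median 0.14), and 180 of the 251 genes remained called.

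Igf2os, the antisense transcript over Igf2, had a difference of -4.34 (adjusted p = 0.0263), and its reads cannot be told apart from those of Igf2 where strand is not given.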
